A study of Mus musculus with 12 samples.

Results

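The comparison described here asks which liver transcripts differed between mice labelled Hnf4a knockout and mice labelled wild type in the same direction on both diets of the study. It took 10 of the 12 libraries: 6 labelled KO (3 on vivarium chow and 3 on high fat diet, HFD) against 4 labelled WT (1 on chow and 3 on HFD). The genotype label is wild-type or Hnf4a liver knockout, while the sources used here do not name the deleted exons, the Cre driver, or the strain and age of the mice. The design text counts the libraries of a group as biological replicates. Expression was measured by RNA sequencing and deposited as FPKM, fragment counts divided by gene length and library size. Each kept library held 15705196 to 20311766 reads on genes.

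The libraries labelled WT chow 2 and WT chow 3 were left out by the rule of the comparison, because Cyp2c29, an abundant hepatocyte cytochrome P450, stood under 10 FPKM in them (0.545 and 0.129 FPKM). The lowest kept library was KO HFD 1, at 60.3 FPKM. The chow arm therefore rests on a single WT library, WT chow 1, which the models assume to vary like the other groups. Other hepatocyte transcripts also stood far from WT chow 1 in the left-out WT chow 2 and WT chow 3. Alb was at 7604 and 11.9 FPKM there (26888 FPKM in WT chow 1) and Ces3a at 8.11 and 0.118 FPKM (994 FPKM). Hsd17b13 was at 217 and 0.284 FPKM (102 FPKM). KO and WT name labels throughout, since the transcript of the targeted gene did not separate them. All 10 kept libraries expressed the Y-linked gene Ddx3y (7.01 to 17.6 FPKM), and Xist did not exceed 0.408 FPKM in any of them.

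HNF4A is a nuclear receptor that binds direct-repeat elements in the promoters and enhancers of hepatocyte genes, among them genes for plasma proteins, apolipoproteins, bile acid enzymes and cytochromes P450. Adult liver lacking it is known for loss of these transcripts, for fat accumulation and for hepatocyte proliferation. Hnf4a itself (ENSMUSG00000017950, GRCm38 chromosome 2, 163506808 to 163572910, plus strand, protein-coding) stood at 126 FPKM in WT chow 1 and at 158, 132 and 130 FPKM in KO chow 1 to 3. The HFD values were 133, 116 and 120 FPKM in the libraries labelled WT and 108, 98.8 and 138 FPKM in those labelled KO. The groups overlapped on HFD, and on chow every library labelled KO was above WT chow 1. In the left-out WT chow 2 and WT chow 3, Hnf4a stood at 75.8 and 0.0973 FPKM. Both values lay below every library labelled KO. The means were 127 ± 21.4 FPKM in KO (SD, n = 6) and 124 ± 7.42 FPKM in WT (SD, n = 4), and the exact two-sided permutation test within diet gave p = 0.7875 over 80 arrangements, of which the smallest possible p is 0.0125. A gene-level FPKM sums all exons, so it would not by itself show the loss of a few of them.

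No gene passed the diet-adjusted test. Of 11870 genes tested on log2(FPKM + 1) with limma, 0 (0%) had a Benjamini-Hochberg adjusted p under 0.05. The smallest adjusted p was 0.436, and limma-voom on the recovered reads also called 0. An unadjusted p under 0.05 was reached by 463 genes (3.9% of those tested), 222 higher and 241 lower in KO. The median difference over all genes was 0.007 and the median standard error (SE) 0.16 on the log2 scale.

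The genes described below were therefore chosen by a condition on the values themselves. In each of the 221 members, every library labelled KO lay beyond every library labelled WT on chow, and again on HFD, in the same direction. They made up 1.86% of the genes tested: 112 were higher in KO (0.944%) and 109 lower (0.918%). Within diet the labels can be arranged in 80 ways. Labels set at random would thus put a gene without ties apart in a given direction with probability 0.0125. Neither direction's share exceeded that. The split moved with the libraries: 374 genes were higher and 175 lower without KO HFD 3, and 148 higher and 252 lower without KO HFD 1. Because the FPKM values chose these genes, their differences are a description, and neither their number nor their size is a test of the label. Of the 221, 197 were protein-coding and 31 were predicted or clone-named genes. The median difference was 0.34 among the higher members and −0.42 among the lower, and 16 members reached 2-fold, 7 higher and 9 lower. The members just inside the condition have groups that nearly touch: Ces3a stood at 1143 FPKM in the lowest WT HFD library and at 1142 FPKM in the highest KO HFD library. Cela1, just outside it, was lower in all KO chow libraries (39.2, 43.3 and 67.5 FPKM) than in WT chow 1 (90.1 FPKM), but its HFD groups overlapped. Under TPM, median-of-ratios and quantile scaling, all added after seeing the data, 185 (79 higher, 106 lower), 233 (117 and 116) and 232 (108 and 124) genes met the same condition, and 73 genes (0.615% of those tested, 32 higher and 41 lower) met it under FPKM and all of these.

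Over all genes, the 2 diets did not share the direction of the label difference. The sign was the same on chow and on HFD in 4385 genes (36.9%). Across the 11870 genes the chow difference and the HFD difference, which share no library, had a Pearson r of −0.20 and a Spearman rho of −0.31. Genes are not independent replicates, and all genes of a diet share its libraries, so this is a description. Genes chosen on the 6 HFD libraries alone (unadjusted p under 0.01) were then read on chow. Of 99 higher on HFD, 22 were higher on chow (22.2%, against 59.6% of all genes) and 19 stood at a difference of exactly 0 there. Of 147 lower on HFD, 30 were lower on chow (20.4%, against 40.2% of all genes). In total 52 of 246 (21.1%) kept their sign.

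**Figure D1:**
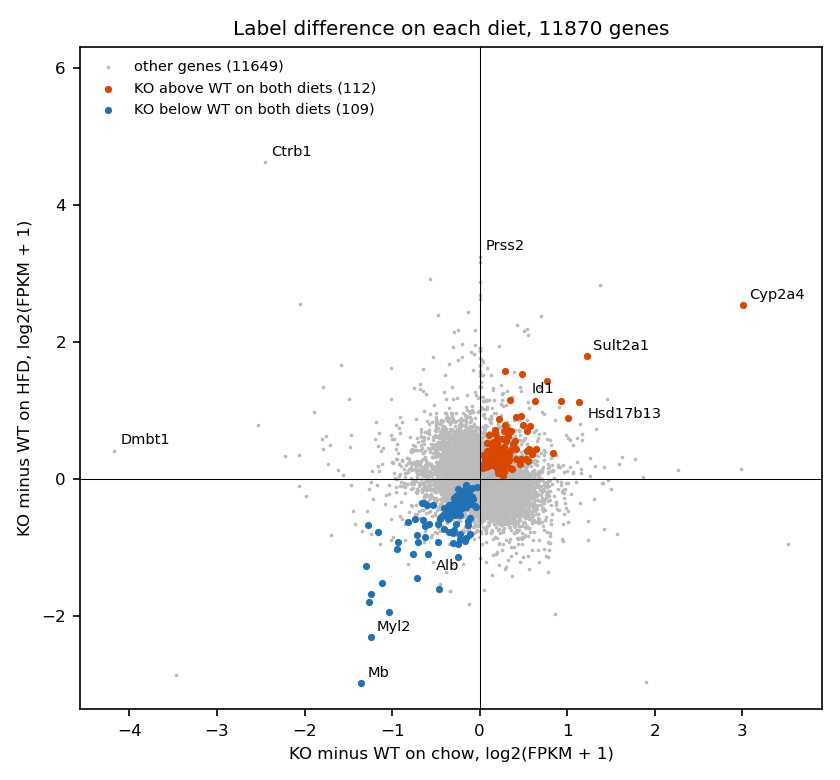
KO minus WT on chow (x axis) against KO minus WT on HFD (y axis), both as differences of mean log2(FPKM + 1), for each of 11870 genes. The 112 members higher in KO (orange) and 109 lower in KO (blue) fill the corners where the diets agree in sign, while most other genes (grey) lie near 0 or in the opposite corners.

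Within single diets, 2 genes passed on chow (0.0168% of those tested), Ctrb1 and Dmbt1, both lower in KO against the lone WT library. On HFD 24 genes passed (0.202%), all higher in KO and nearly all transcripts of the exocrine pancreas or of Paneth cells. Gm3699, a predicted pseudogene of 78 bases, was the only member among those 24. It is named here after its values were seen. It stood at 1.39 FPKM in WT chow 1 against 2.38, 2.52 and 3.27 FPKM in KO chow, and at 2.68, 2.93 and 3.65 FPKM in WT HFD against 8.49, 6.69 and 8.71 FPKM in KO HFD. The difference between the diets, tested as an interaction, passed in 10 genes (0.0842%), none of them a member.

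The naming rule gave 10 members in each direction, none past the threshold (limma with Benjamini-Hochberg adjustment, adjusted p from 0.583 to 0.850). The largest difference among the 10 higher genes was that of Cyp2a4 (chromosome 7, 26307190 to 26315088, plus strand), which encodes a steroid-hydroxylating cytochrome P450 that is more abundant in female than in male mouse liver. It stood at 0.57 FPKM in WT chow 1 and at 17.4, 9 and 9.9 FPKM in KO chow. The HFD values were 0.274, 1.07 and 2.62 FPKM in WT and 11.3, 32.8 and 3.46 FPKM in KO. All 6 libraries labelled KO were above all 4 labelled WT, by 2.69 on the log2(FPKM + 1) scale (SE 0.50). Cyp2a4 has a near-identical neighbour, Cyp2a5, so the split of reads between them is uncertain.

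Hsd17b13 (chromosome 5, 103955440 to 103977410, minus strand) encodes a lipid-droplet protein of hepatocytes and was the most abundant of the 10. It stood at 102 FPKM in WT chow 1 against 221, 211 and 243 FPKM in KO chow. On HFD the WT libraries held 136, 116 and 158 FPKM and the KO libraries 342, 417 and 183 FPKM. The difference was 1.13 overall (SE 0.21), 1.13 on chow and 1.13 on HFD, and again no library of one label overlapped the other.

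Manf (chromosome 9, 106838312 to 106891979, minus strand) encodes a secreted protein of the endoplasmic reticulum (ER) stress response. It stood at 53.2 FPKM in WT chow 1 against 88.3, 76.3 and 74.8 FPKM in KO chow, and at 33.8, 49.3 and 44.3 FPKM in WT HFD against 79.2, 65.1 and 73.8 FPKM in KO HFD. All KO libraries exceeded all WT libraries, and the difference was 0.71 (SE 0.14). Sparcl1 (chromosome 5, 104079111 to 104114088, minus strand), a matricellular glycoprotein, stood at 0.419 FPKM in WT chow 1 against 1.53, 2.64 and 1.51 FPKM in KO chow. The HFD values were 0.353, 0.79 and 0.712 FPKM in WT and 1.79, 2.8 and 1.49 FPKM in KO, a difference of 0.93 overall (SE 0.17) with no overlap.

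The 10 higher genes included 2 transcripts of immune cells. Ccl5, a chemokine that attracts T cells, stood at 1.46 FPKM in WT chow 1 against 1.67, 2.43 and 3.34 FPKM in KO chow, and at 2.27, 2.23 and 2.72 FPKM in WT HFD against 6.85, 5.94 and 3.82 FPKM in KO HFD. Trbc2, a constant segment of the T cell receptor beta chain, stood at 0.73 FPKM in WT chow 1 against 1.78, 1.42 and 1.34 FPKM in KO chow. On HFD the values were 1.51, 0.549 and 1.09 FPKM in WT and 2.54, 1.6 and 2.72 FPKM in KO. For both genes the labels separated within a diet but overlapped across diets, with differences of 0.77 (SE 0.19) and 0.64 (SE 0.17). Of the 16 tested genes of the lymphocyte and granulocyte list, 2 were higher members (Trbc2 and Gzmb) and 1 was a lower member (Cd79b). Over all genes the shares were 0.944% and 0.918%. The list as a whole did not lean to either side: 7 genes had a higher diet-adjusted mean in KO and 9 a lower one. The median was −0.01, and 7 of 16 had the same sign on both diets. Its summed level ran from 44.2 to 119 FPKM in KO chow against 63.6 FPKM in WT chow 1. In a bulk sample, a different number of cells of a type and a different amount of RNA per cell cannot be told apart.

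The remaining higher genes under the rule were Tubb4b, a beta-tubulin (0.58, SE 0.15), Hist1h2ae, a histone H2A gene (0.88, SE 0.23), Exosc1, a subunit of the RNA exosome (0.50, SE 0.14), and Cep85, a centrosomal protein (0.69, SE 0.19). Exosc1 was apart over all 10 libraries (4.09 to 4.66 FPKM in WT against 5.37 to 9.18 FPKM in KO). Cep85, like Fam47e among the lower genes, was not apart under every scaling, while the other 18 named genes were.

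**Figure D2:**
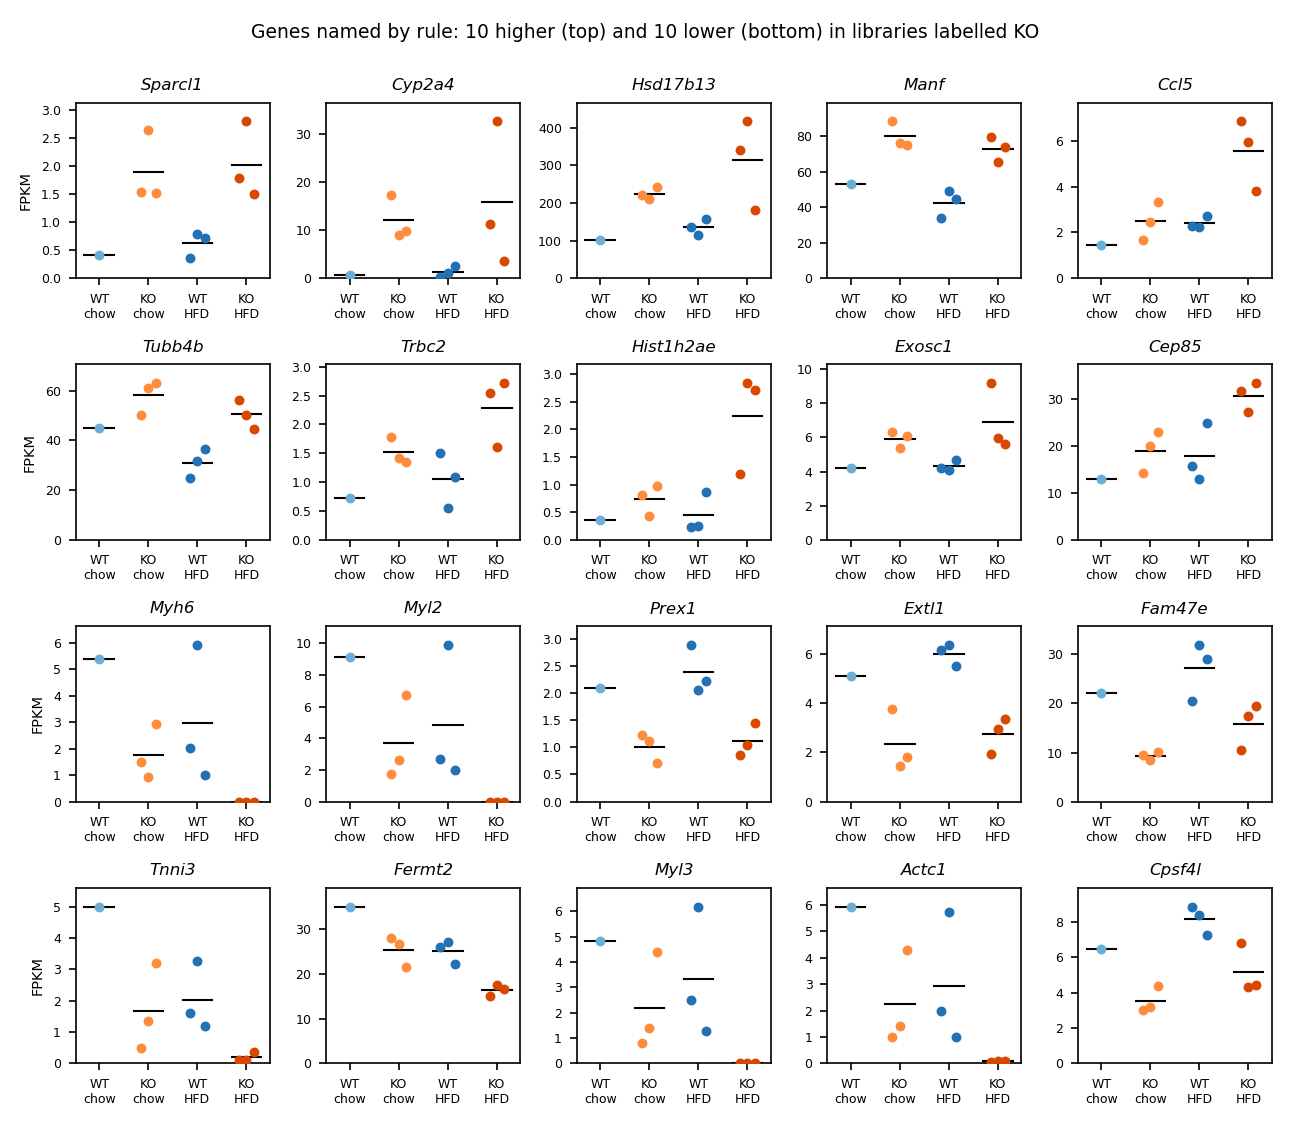
FPKM (y axis, from 0) in each of the 10 libraries for the 20 genes named by rule, by label and diet, with a line at each group mean; upper 2 rows higher in KO, lower 2 rows lower in KO. WT chow is a single point, and Myh6, Myl2 and Myl3 stand at 0 in all 3 KO HFD libraries.

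The lower members were led by transcripts of striated muscle, rather than of hepatocytes. Of 17 tested genes on the heart and skeletal muscle list, 16 had a lower diet-adjusted mean in KO. In it 10 were lower members and 0 were higher members (over all genes, 0.918% and 0.944%). The list's median was −0.99 (−0.70 on chow, −1.24 on HFD), against 0.007 over all genes, and −0.67 without WT HFD 2. Myh6 (chromosome 14, 54941921 to 54966927, minus strand), the cardiac alpha myosin heavy chain, stood at 5.36 FPKM in WT chow 1 against 1.49, 0.923 and 2.91 FPKM in KO chow. The HFD values were 2.04, 5.92 and 0.992 FPKM in WT, and no KO HFD library had a read. With a floor of 3 reads over that group, Myh6 was at least 332-fold lower in KO HFD than in WT HFD, or at least 168-fold without WT HFD 2, which covers counting error only.

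Myl2, the ventricular myosin regulatory light chain, stood at 9.11 FPKM in WT chow 1 against 1.74, 2.66 and 6.73 FPKM in KO chow, and at 2.71, 9.91 and 1.98 FPKM in WT HFD. It too had no read in KO HFD, at least 79.1-fold lower, or at least 38.1-fold without WT HFD 2. Mb, the muscle oxygen carrier myoglobin, stood at 8.21 FPKM in WT chow 1 against 0.952, 2.18 and 6.56 FPKM in KO chow, and at 3.88, 40.4 and 1.54 FPKM in WT HFD against 0.0499, 0 and 0 FPKM in KO HFD. WT HFD 2 was the highest of the 10 libraries for each of Myh6, Myl2 and Mb, whose differences were −1.62, −1.95 and −2.44 with it and −1.28, −1.55 and −1.62 without it. Myl3, a cardiac essential light chain, likewise had no read in KO HFD, at least 57.2-fold lower, or at least 32.4-fold without WT HFD 2. The cardiac troponin subunits Tnni3, Tnnt2 and Tnnc1 differed by −1.28 (SE 0.28), −0.98 (SE 0.23) and −0.99 (SE 0.27), the cardiac actin Actc1 by −1.53 (SE 0.35), and Pln, the calcium pump inhibitor phospholamban, by −0.85 (SE 0.24). The summed level of the list was 52.6 FPKM in WT chow 1 against 14.8 to 40.1 FPKM in KO chow, and 20.7 to 228 FPKM in WT HFD against 6.93 to 9.06 FPKM in KO HFD. The part of tissue other than liver in these members was not tested.

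Outside the muscle genes, Prex1 (chromosome 2, 166566342 to 166713832, minus strand), an activator of the GTPase Rac, stood at 2.09 FPKM in WT chow 1 against 1.22, 1.11 and 0.702 FPKM in KO chow, and at 2.89, 2.06 and 2.22 FPKM in WT HFD against 0.853, 1.04 and 1.45 FPKM in KO HFD. All 6 libraries labelled KO were below all 4 labelled WT, with a difference of −0.66 (SE 0.14). Extl1 (chromosome 4, 134356372 to 134383850, minus strand), a glycosyltransferase of the exostosin family, stood at 5.08 FPKM in WT chow 1 against 3.77, 1.43 and 1.79 FPKM in KO chow, and at 6.16, 6.36 and 5.5 FPKM in WT HFD against 1.93, 2.96 and 3.34 FPKM in KO HFD. It differed by −0.93 (SE 0.19), also without overlap. Fam47e differed by −0.90 (SE 0.19), Cpsf4l by −0.64 (SE 0.15) and Fermt2, the integrin activator kindlin-2, by −0.54 (SE 0.12). Fermt2 overlapped across diets, since KO chow (21.5 to 28.1 FPKM) spanned the range of WT HFD (22.1 to 27.2 FPKM).

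Among the 751 tested genes of 39 lists covering liver functions and cell types, 26 (3.46%) were members, against 1.86% of all genes. Of these, 9 were higher and 17 lower (0.944% and 0.918% of all genes), and 10 of the 17 were the muscle genes. The genes named in the rest of this section are list members outside the naming rule and were chosen after their values were seen. On the list of hepatocyte identity genes and known HNF4A targets, 0 of 30 were higher members and 2 were lower members, Alb and Ces3a, and the median was −0.06. Alb (chromosome 5, 90460889 to 90476603, plus strand), which encodes serum albumin, stood at 26888 FPKM in WT chow 1 against 18055, 20343 and 15438 FPKM in KO chow. The HFD values were 31849, 29905 and 41503 FPKM in WT and 12811, 15115 and 21127 FPKM in KO. All libraries labelled KO were below all labelled WT (difference −0.92, SE 0.25), but with quantile scaling Alb no longer met the condition. The summed level of the hepatocyte list, of which Alb is the largest part, was 82057 FPKM in WT chow 1 against 64624 to 73022 FPKM in KO chow. It was 82479 to 88423 FPKM in WT HFD against 55964 to 82107 FPKM in KO HFD. Ces3a, a liver carboxylesterase, differed by −0.28 (SE 0.15) and met the condition on the FPKM scale alone.

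Nr1i3 (chromosome 1, 171213970 to 171220701, plus strand) encodes CAR, the nuclear receptor that switches on drug-metabolizing enzymes. Nr1i3 was the lower member among 22 liver transcription factors (over all genes, 0.918%). It stood at 32.5 FPKM in WT chow 1 against 29.6, 27.1 and 25.2 FPKM in KO chow, and at 57.7, 55.9 and 46.7 FPKM in WT HFD against 15, 41.6 and 31.3 FPKM in KO HFD. The chow gap was narrow (−0.25) and the HFD gap wide (−0.95). The core circadian clock list did not share a direction between the diets: its median was 0.19 on chow and −0.32 on HFD, and 2 of 19 genes had the same sign on both.

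Of 31 conjugation and antioxidant enzymes tested, 2 were higher members (over all genes, 0.944%). The list split into 16 genes with a higher diet-adjusted mean in KO and 15 with a lower one. Gstm3, a glutathione transferase, stood at 55.8 FPKM in WT chow 1 against 64.7, 88.6 and 84.8 FPKM in KO chow, and at 21.6, 27.8 and 41.9 FPKM in WT HFD against 52.3, 248 and 50.3 FPKM in KO HFD. Sult2a1, a steroid and bile acid sulfotransferase that is female-predominant in mouse liver, was not counted in WT chow 1, WT HFD 1 and WT HFD 3 and stood at 0.673 FPKM in WT HFD 2. The KO values were 1.09, 0.579 and 2.87 FPKM on chow and 17, 0.818 and 1.11 FPKM on HFD. Single HFD libraries, KO HFD 2 for Gstm3 and KO HFD 1 for Sult2a1, gave the highest values. Reads of both families can be shared among close paralogs. The female-high list, of which Cyp2a4 and Sult2a1 are members, had a median of 0.42 (0.34 on chow and 0.49 on HFD, 18 tested), and the male-high list one of −0.03 (30 tested). Without KO HFD 1 the female-high median was 0.017, and Sult2a2, the list's gene with the next smallest p after Cyp2a4, overlapped on HFD (0.422 to 2.38 FPKM in KO against 0 to 0.463 FPKM in WT). Cyp4a14, its most abundant gene, overlapped on both diets (difference −0.44, SE 0.73).

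Id1, an inhibitor of basic helix-loop-helix factors that responds to BMP signals and iron, stood at 5.2 FPKM in WT chow 1 against 7.31, 12 and 14.3 FPKM in KO chow. The HFD values were 6.94, 6.71 and 3.33 FPKM in WT and 24.7, 10.3 and 8.64 FPKM in KO. All KO libraries were above all kept WT libraries (difference 1.07, SE 0.30). The left-out WT chow 2, at 30.3 FPKM, was above every KO library, and the left-out WT chow 3 stood at 14.3 FPKM. Zbp1, an interferon-inducible nucleic acid sensor, was the higher member among 37 interferon-stimulated genes (difference 0.63, SE 0.18), against 0.944% of all genes.

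On the list of the unfolded protein and integrated stress responses, 2 of 25 were higher members (Calr and Manf), 0 were lower members, the median was 0.16, and 13 of 25 genes had the same sign on both diets. A wider list of 73 tested genes of ER translocation, N-glycosylation and folding was written after the values had been seen. In it 61 genes had a higher diet-adjusted mean in KO and 12 a lower one, against 6106 higher of all 11870 genes. Of the 73, 39 had the same sign on both diets. The median was 0.19 (0.22 on chow and 0.15 on HFD), and 9 were higher members (over all genes, 0.944%): Spcs2, Ostc, Rpn2, Alg3, Calr, Pdia3, Manf, Edem2 and Slc35b1. Calr, the lectin chaperone calreticulin, stood at 317 FPKM in WT chow 1 against 345, 444 and 369 FPKM in KO chow, and at 236, 315 and 302 FPKM in WT HFD against 411, 335 and 392 FPKM in KO HFD. Ostc, a subunit of the oligosaccharyltransferase that attaches N-glycans, stood at 47 FPKM in WT chow 1 against 64.4, 54.8 and 60.4 FPKM in KO chow, and at 33.1, 40.9 and 51.4 FPKM in WT HFD against 86, 58 and 58.4 FPKM in KO HFD. Ostc and Calr were apart over all 10 kept libraries. In the left-out WT chow 2, Calr (475 FPKM), Pdia3 (204 FPKM), Edem2 (101 FPKM), Rpn2 (80.6 FPKM), Ostc (79.1 FPKM) and Slc35b1 (40.3 FPKM) lay above every KO chow library. Manf (74.4 FPKM) lay below every one there. In the left-out WT chow 3 each of these genes, Manf included, lay below every KO chow library. Ostc, Slc35b1 and Manf met the condition under every scaling, whereas Calr and Pdia3 did not under TPM or quantile scaling. Rpn2 did not meet it under TPM, and Spcs2, Alg3 and Edem2 met it on the FPKM scale alone. The list's median stayed above 0 under every scaling run and was 0.13 without KO HFD 1.

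The kynurenine pathway breaks down tryptophan, and its list too was written after the values had been seen. Of 14 tested genes, 3 were lower members (Ido2, Afmid and Aldh8a1) and 0 were higher members (over all genes, 0.918% and 0.944%). The median was −0.15. Ido2 met the condition under every scaling, Afmid under FPKM and TPM only, and Aldh8a1 on the FPKM scale alone. Ido2, a tryptophan-opening dioxygenase, stood at 29.3 FPKM in WT chow 1 against 18.3, 24.1 and 20.5 FPKM in KO chow, and at 27.3, 35 and 26.6 FPKM in WT HFD against 12.8, 24.9 and 18.8 FPKM in KO HFD, with no overlap over the 10 libraries. Without KO HFD 1 the median of the list was −0.05.

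**Figure D3:**
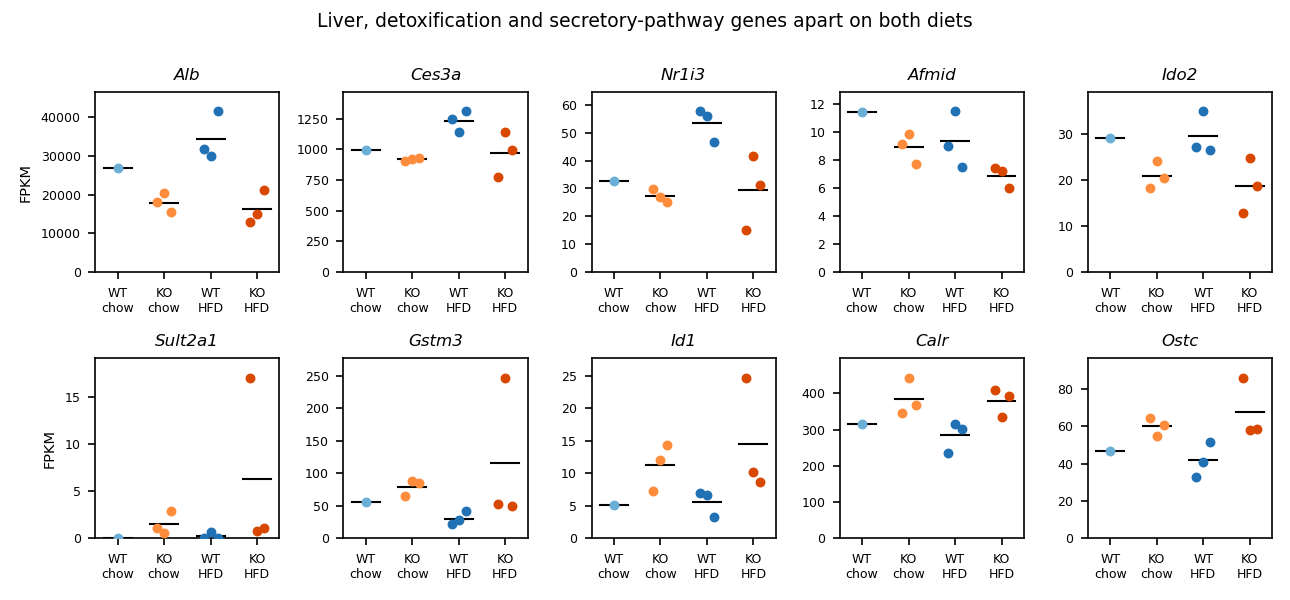
FPKM (y axis, from 0) in each of the 10 libraries for 10 members of liver, detoxification and secretory lists, by label and diet, with a line at each group mean. Alb, Ces3a, Nr1i3, Afmid and Ido2 are lower in KO within both diets; Sult2a1, Gstm3, Id1, Calr and Ostc are higher, with KO HFD 1 or 2 highest on HFD in Sult2a1, Gstm3 and Id1.

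Several other lists had medians of opposite sign on the 2 diets. All 26 cytosolic ribosomal protein genes had opposite signs, with a median of −0.17 on chow and 0.63 on HFD. Their diet-adjusted median was 0.37, and 0.13 without KO HFD 1. Their summed level was 13277 to 28113 FPKM in KO HFD against 10214 to 13308 FPKM in WT HFD. The acute phase list, plasma proteins made in inflammation, had medians of −0.06 and 0.80. Its gene with the smallest p, Orm3, stood at 8.93 FPKM in WT chow 1 against 6.49, 8.85 and 13.5 FPKM in KO chow, and at 5.28, 9.32 and 16.5 FPKM in WT HFD against 27.8, 27.1 and 32.1 FPKM in KO HFD. Lcn2, which binds bacterial siderophores, overlapped on HFD (2.44 to 99.2 FPKM in WT and 83.6 to 91.2 FPKM in KO), and so did Hpx, the heme carrier hemopexin (difference 0.22, SE 0.26). Sinusoidal endothelial genes had medians of 0.28 on chow and −0.24 on HFD, and 1 of 15 had the same sign on both. Stellate cell and fibrosis genes had medians of 0.24 and −0.17. The 7 erythroid genes all had a lower diet-adjusted mean in KO, at medians of 0.10 on chow and −0.77 on HFD. Hbb-bs stood at 615, 828 and 1612 FPKM in WT HFD against 527, 574 and 543 FPKM in KO HFD. Some lists without members had medians of one sign on both diets, among them cholesterol synthesis (0.19 and 0.27) and bile acid synthesis and transport (−0.10 and −0.08). In these lists 10 of 25 and 15 of 23 genes had the same sign on both diets, and the cholesterol median was −0.06 with library weights.

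**Figure D4:**
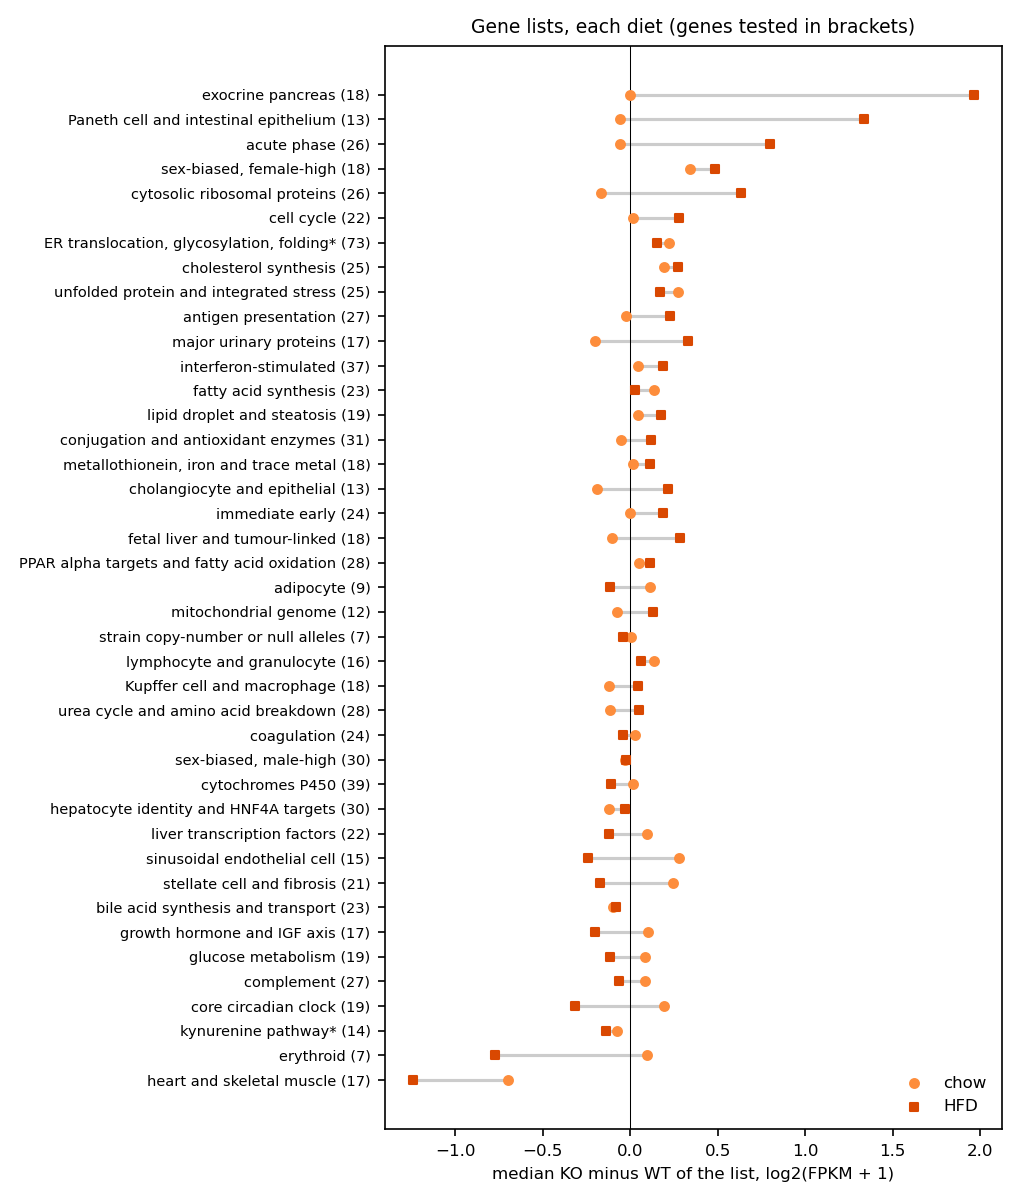
Median KO minus WT (x axis, log2(FPKM + 1)) of each gene list on chow (circles) and on HFD (squares), with the number of genes tested in brackets and lists in the order of their diet-adjusted median; asterisks mark the lists written after the values were seen. Heart and skeletal muscle lies below 0 on both diets, while exocrine pancreas, Paneth cell, acute phase and ribosomal protein lists lie above 0 on HFD and at or below 0 on chow. Some pancreas and Paneth genes, among them Prss2, Try5 and Defa22, reached the mean of 0.5 FPKM needed for testing through KO HFD alone.

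The interaction genes give the opposite picture to the members. Ctrb1, a pancreatic chymotrypsinogen, stood at 4.47 FPKM in WT chow 1, at 0 in all KO chow and all WT HFD libraries, and at 34.3, 18.5 and 20.6 FPKM in KO HFD. Dmbt1, a mucosal scavenger protein, stood at 17.2 FPKM in WT chow 1 and did not exceed 0.476 FPKM in any other kept library. The protease precursors Prss2 and Try5 were listed at 0 in all kept libraries but KO HFD (7.36 to 11 FPKM and 4.67 to 7.51 FPKM), and Clps, the cofactor of pancreatic lipase, at 0 in all kept libraries but KO HFD (3.71 to 5.42 FPKM) and WT chow 1 (0.0988 FPKM). The pancreas list held 26 genes with deposited values, of which 18 were tested. The summed level of the 26 was 138 to 210 FPKM in KO HFD against 62.6 to 84.1 FPKM in WT HFD. On chow it was 40.4 to 68.4 FPKM in KO against 97.1 FPKM in WT chow 1. KO HFD was thus the group with the lowest muscle sum and the highest pancreas sum, and KO chow lay below WT chow 1 in both. Outside KO HFD, however, a single gene, Cela1, made up most of the pancreas sum. Cela1 stood at 90.1 FPKM in WT chow 1, at 39.2 to 67.5 FPKM in KO chow and at 61.8 to 83.3 FPKM in WT HFD. In KO HFD it stood at 63.3 to 73.7 FPKM. Of 27 Paneth cell and intestinal genes with deposited values, 13 were tested. Among these, Defa22 and Reg3b had the smallest p and stood at 1.99 to 3.95 FPKM and 1.86 to 3.92 FPKM in KO HFD, against 0 in WT HFD. Fabp2, the most abundant of them, differed by −0.25 (SE 0.23). Prss2, Try5 and Defa22 reached the mean of 0.5 FPKM needed for testing through KO HFD alone. The medians of the pancreas and Paneth lists therefore depend in part on that filter.

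By position, the members were spread over the genome. Of 152 tested genes within 10 Mb of Hnf4a, 4 were members (2.63%, against 1.86% of all genes): Zbp1, Rpn2 and Edem2 were higher and Prex1, 2.99 Mb away, was lower. Chromosome 7 held 25 members of 904 tested (2.77%) and chromosome 5 held 20 of 775 (2.58%).

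The promoters of 3 members are shown because they carry elements of the kind read by HNF4A or by clock factors: 250 bases upstream of the RefSeq start on GRCm38.p6, all on the plus strand, at chr5:90460620-90460869 for Alb, chr1:171213720-171213969 for Nr1i3 and chr6:124492863-124493112 for C1rl. C1rl encodes a complement-like protease made by the liver and was a lower member on the FPKM scale alone (difference −0.33, SE 0.13). Capitals mark TTATGTAA, a D-box, on either strand in Alb, CACGTG, an E-box, in Nr1i3 and C1rl, and CAAAGGTCA, a part of a direct-repeat element, in C1rl.
Alb: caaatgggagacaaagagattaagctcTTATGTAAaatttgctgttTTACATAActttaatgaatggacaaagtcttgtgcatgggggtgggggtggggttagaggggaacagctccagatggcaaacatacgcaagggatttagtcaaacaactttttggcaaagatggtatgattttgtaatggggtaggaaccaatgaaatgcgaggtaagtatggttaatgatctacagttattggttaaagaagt
Nr1i3: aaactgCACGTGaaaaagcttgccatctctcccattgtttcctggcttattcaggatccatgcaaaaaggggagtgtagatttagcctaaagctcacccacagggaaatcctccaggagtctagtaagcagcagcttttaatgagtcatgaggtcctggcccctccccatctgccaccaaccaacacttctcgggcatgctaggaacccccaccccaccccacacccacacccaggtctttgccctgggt
C1rl: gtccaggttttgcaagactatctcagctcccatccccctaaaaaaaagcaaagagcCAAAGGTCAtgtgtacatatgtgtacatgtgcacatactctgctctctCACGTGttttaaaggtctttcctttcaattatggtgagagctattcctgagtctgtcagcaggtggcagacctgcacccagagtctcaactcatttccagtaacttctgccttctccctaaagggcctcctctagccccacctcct
Motifs were searched on both strands of the 300 bases around each start, for 8635 of 11862 symbols with a RefSeq promoter, including 72 of the 112 higher and 84 of the 109 lower members. CAAAGTCCA, an HNF4 motif, was in 0.614% of all these promoters, in 0 of the higher members and in 1 lower member, Pipox. CAAAGGTCA was in 0.510% of all, in 1 higher member (Rpn2) and in 1 lower member (C1rl). CACGTG was in 12.0% of all, in 6 higher (8.33%) and in 8 lower members (9.52%). TTATGTAA was in 0.706% of all, in 0 higher and in 2 lower members, Alb and Map2k6. A match or its absence in this window says nothing of binding.

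The 2 libraries left out were compared with KO chow alone, since the rule did not use their other genes. Both stood far below WT chow 1 in hepatocyte transcripts such as Alb (7604 and 11.9 FPKM, against 26888 FPKM). The counts are therefore a description and no test of the label. WT chow 2 was below every KO chow library in 25 of the 112 higher members (22.3%, against 46.8% of all genes) and above every one in 24 of the 109 lower members (22.02%, against 39.7%). WT chow 3 was below in 75 of 112 (67.0%, against 51.9% of all genes) and above in 23 of 109 (21.1%, against 30.6%). With all 12 libraries in the comparison, 28 of the 221 members met the condition, 21 higher and 7 lower.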

How the data were processed

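RNA sequencing of mouse liver was deposited by the authors as FPKM for 35275 genes, beside gene lengths and coordinates, per the file headers. The submitters' processing notes name STAR, TopHat, CASAVA, DESeq2 (version 2) and HTSeq 0.6.1, with mm10 and GRCm38, and the sources used here give neither strand setting nor filters. In all, 27 date-like symbols were restored by gene ID, and 34490 IDs matched the names table. FPKM times gene length gave whole reads for 100% of values (tolerance 0.1). The fit took 11870 genes averaging 0.5 FPKM or more in the 10 libraries (11073 protein-coding), with limma 3.58.1 (R 4.3.3) on log2(FPKM + 1) with empirical Bayes trend and Benjamini-Hochberg adjustment at 0.05, with diet as covariate. A fit of 4 group means gave each diet and the interaction. Folds on this scale understate low genes. The p-values measure the spread between these samples.

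The naming rule asked for genes past the threshold. As none passed, it was filled to 10 per direction by the smallest unadjusted p among genes meeting its other conditions: apart within both diets, at least 1 FPKM in KO or WT, not predicted or pseudogenes. Up to 5 interaction genes and the leading genes of lists with a median of at least 0.4 in size were also named. The members and lists were chosen with earlier results of these data known. The fits were tested on simulated data. Same-numbered libraries shared no more than their number. Alternatives covered scaling, filter, pseudocount, library weights, block and left-out libraries. Plots used Python 3.11.15 with matplotlib 3.10.9.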

Additional observations from a re-analysis of the deposited data

Results flagged for a closer look

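Of the 10 genes whose KO minus WT difference differed between the diets by limma's interaction test, 5 are named, all more positive on HFD. The HFD difference exceeded the chow difference by 7.07 for Ctrb1, 4.59 for Dmbt1, 3.24 for Prss2, 2.57 for Clps and 2.87 for Try5 on the log2(FPKM + 1) scale. Ctrb1, Prss2, Clps and Try5 would not have reached the mean of 0.5 FPKM needed for testing without KO HFD. Dmbt1 reached it through WT chow 1. The filter thus admitted these genes through the group where they were high, and their differences are a description. The chow side rests on WT chow 1 alone as the WT library for each of them. With the replicate block Ctrb1, Dmbt1 and Prss2 passed and Clps and Try5 did not, and by limma-voom Ctrb1 and Dmbt1 passed and Prss2, Clps and Try5 did not.

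The libraries left out of the comparison stood above all 10 kept libraries in some named members. Sparcl1 was at 23.61 FPKM in WT chow 3. Tubb4b was at 142.8 FPKM in WT chow 2 and at 82.28 FPKM in WT chow 3. In WT chow 2 the muscle transcripts Myl2, Tnni3, Myl3 and Actc1 were at 10.39, 6.285, 7.654 and 6.341 FPKM. Sparcl1 and Tubb4b thus lay above KO in libraries labelled WT, opposite to their direction among the kept libraries. The muscle genes in WT chow 2 lay on the same side as in the kept WT libraries. In WT chow 3 they did not: Myl2, Tnni3, Myl3 and Actc1, at 2.25, 1.86, 3.15 and 2.22 FPKM, lay inside the range of KO chow.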

How the results depend on the processing

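The diet-adjusted test called 0 genes under every scaling, pseudocount, filter, voom, robust, no diet term and all-12-library setting, and with each library left out except WT chow 1. Without WT chow 1, where only HFD compares the labels, it called 24, so leaving out 1 library gave 0 to 24. HFD alone called 19, chow alone 4, equal weight of both diets 7 and library weights 34 (28 higher, 6 lower, including Cyp2a4, Hsd17b13, Sparcl1, Ccl5, Hist1h2ae, Myh6, Myl2, Extl1 and Cpsf4l). Members numbered 415 with no filter (141 higher, 274 lower) and 28 with all 12 libraries, and 260 to 549 with 1 library left out; without WT chow 1 there is no chow comparison. The interaction count was 3 by voom (Ctrb1, Dmbt1 and Zg16), 3 with the replicate block (Ctrb1, Dmbt1 and Prss2), and 5 to 25 with 1 library left out, the 25 without KO HFD 1. The replicate block left the diet-adjusted count at 0; 1 of 9 same-number pairs had deviations correlated above 0.1 (−0.1456 to 0.1347), so the numbers were not taken as pairs. With all 12 libraries Fam47e (0.50), Fermt2 (0.011), Cela1 (0.062), Fabp2 (1.29) and Hnf4a (1.28) changed sign. Hnf4a was also above 0 without WT HFD 1 (0.024), KO HFD 1 (0.013) or KO HFD 2 (0.050), on chow alone (0.15), with no diet term (0.027) and with equal weight (0.018). On chow alone Ctrb1 was −2.45, Clps −0.14 and Reg3b −0.061. Dmbt1 was 0.41 and Fabp2 0.0081 without WT chow 1 and on HFD alone, Fabp2 0.11 with library weights, and Cyp4a14 0.10 without KO HFD 3; the cause was not tested. With 1 library left out, Hnf4a ran from −0.11 to 0.050, Dmbt1 from −1.38 to 0.41, Cyp4a14 from −1.22 to 0.10 and Fabp2 from −0.44 to 0.0081. Of the gene values recomputed, 950 kept direction and side of the threshold, 31 came to pass it and 20 changed sign. Settings on the members were chosen after seeing the data. Depth limits muscle and pancreas transcripts, which stood at a few FPKM or 0.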
